A study of Mus musculus with 18 samples.

Results

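Lipogenesis and lipid droplet genes are the genes with which liver cells make, store, release and ship neutral fat, and 42 of them, listed by symbol, were followed across 3 groups of mouse livers. The list held 4 transcription factors and coactivators, 6 genes of acetyl-CoA, NADPH and fatty acid synthesis, 9 of elongation and desaturation, 7 of triglyceride assembly, 8 of the lipid droplet coat and droplet growth, 5 of lipolysis and 3 of fatty acid uptake, binding and export. All 42 symbols were found among the 54752 genes of the deposited table, and all 42 passed the expression filter, so every count of members below covers the whole list. In a fit of the CCl4_PTH and CCl4 libraries alone, Cidea and Mogat1 did not pass that filter, so these 2 genes entered the tests through the control livers.

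RNA came from the livers of 18 male C57BL/6 mice, 6 per group, sampled in week 22. The experiment had begun with 45 mice aged 6 weeks, 15 in each group. Mice of the CCl4_PTH group were injected into the peritoneum with carbon tetrachloride (CCl4) 2 times per week and were gavaged each day with PTH. PTH, also spelled PZH in the labels, stands for Pien Tze Huang, which is a medicine of traditional Chinese practice. Mice of the CCl4 group had the same CCl4 injections and were gavaged with water. Control mice were injected with olive oil and gavaged with water. CCl4 is a solvent that becomes a reactive radical through cytochrome P450 enzymes of the hepatocyte, and when given repeatedly it injures and scars the liver. The labels call the CCl4 mice a liver cancer model. Whether the sampled pieces held tumour, whether the mice had eaten, the hour of sampling and the time since the last injection are not given in the sources used here. No group had PTH without CCl4.

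The hepatocyte makes fatty acids from acetyl-CoA after a meal, when insulin activates the transcription factor SREBP-1c (encoded by Srebf1) and sugar metabolites activate ChREBP (encoded by Mlxipl). New fatty acids are lengthened, desaturated and joined to glycerol, and the triglyceride is either held in droplets coated with perilipin and CIDE proteins or loaded into lipoproteins. During fasting, lipases on the droplet surface release the fatty acids for oxidation. Excess droplet fat is the hallmark of fatty liver.

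Levels are given as CPM, a gene's deposited count per 1e6 (1 M) counts of a library, with library sizes normalised between libraries by TMM factors. Libraries held 76.9 to 118.9 M counts in the CCl4_PTH group, 67.2 to 83.8 M in the CCl4 group and 77.2 to 86.6 M in the control group, and loci of ribosomal RNA took between 30.6% and 55.8% of them. Alb, which encodes serum albumin and checks the tissue label, lay at 23673 to 31622 CPM in CCl4_PTH livers (median 25069), 11739.5 to 36148 in CCl4 livers (median 24878) and 28929.9 to 42895 in control livers (median 35521). Hepatocyte markers summed to 36059 to 47948 CPM in CCl4_PTH livers, 18492 to 48597 CPM in CCl4 livers and 46778 to 62282 CPM in control livers. Of the 11 hepatocyte markers found in the table, 7 were lower in CCl4 than in control livers (63.6%, against 21.2% of all tested genes). The median log2 fold change over the 11 was -0.91. Against CCl4 livers, 3 of the 11 were higher in CCl4_PTH livers (27.3%, against 7.1% of all tested genes, median 0.48). In bulk liver RNA, fewer hepatocytes and less RNA of a gene per hepatocyte cannot be told apart, and the part of hepatocyte content in the results below was not tested. Without TMM factors the median log2 fold change of all tested genes moved to 0.63 for CCl4 against control, against 0.05 with them, and the share of calls that were higher moved to 91.4%, against 55.3%. For CCl4_PTH against control the median was 0.51 without the factors and 0.04 with them, and the higher share 96.4% and 62.8%. For CCl4_PTH against CCl4 the median was -0.13 and -0.03, and the higher share 43.4% and 58.9%.

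On build GRCm38, the genes the results turn on most lie, as protein-coding genes of the GENCODE annotation, as follows. The regulators are Srebf1 (ENSMUSG00000020538, chr11:60199089-60222581, minus strand) and Mlxipl (ENSMUSG00000005373, chr5:135089890-135138382, plus strand). The synthesis and desaturation genes are Fasn (ENSMUSG00000025153, chr11:120805846-120824547, minus strand) and Scd1 (ENSMUSG00000037071, chr19:44394455-44407879, minus strand). The droplet genes are Plin2 (ENSMUSG00000028494, chr4:86648386-86670060, minus strand), Fitm1 (ENSMUSG00000022215, chr14:55575617-55576954, plus strand) and Fitm2 (ENSMUSG00000048486, chr2:163466379-163472629, minus strand), and the uptake gene is Cd36 (ENSMUSG00000002944, chr5:17781690-17888801, minus strand). Exons of 19 of the 42 genes overlap exons of another gene, 16 of them on the opposite strand, among them Srebf1 with Rai1, Acss2 with Gss, Agpat2 with Egfl7, Plin4 with Hdgfl2, Cideb with Nop9 and Mttp with Trmt10a. Whether the counting used strand was not given in the sources used here, so reads of such pairs cannot be told apart.

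Controls 1 and 8 and CCl4_PTH 1 stood apart in these genes. Control 8 was the highest of the 6 controls for 18 of the 42 genes and among the 2 highest for 29, and control 1 was among the 2 highest for 20 and the lowest for 14. CCl4_PTH 1 was the lowest of its group for 23 genes and the highest for 12. Control 1 and CCl4_PTH 1 also had the lowest ribosomal RNA shares of their groups. These were 32.5% (controls up to 55.8%) and 30.6% (CCl4_PTH livers up to 47.2%), whereas control 8 was at 46.0%. The part of this difference in the levels was not tested. The lipogenic enzymes carried the contrast among the controls: Fasn, the fatty acid synthase, was at 508 CPM in control 1 and 1118 CPM in control 8, against 61.9 to 135 CPM in the other 4 controls. Scd1, the main stearoyl-CoA desaturase of the liver, was at 6473 and 13259 CPM in these 2 controls, against 750.2 to 1811 CPM in the other 4. Some genes outside the list that are known to follow feeding and fasting also set these controls apart. Pklr, the liver pyruvate kinase and a ChREBP target, was at 247 and 228 CPM in controls 1 and 8, against 40.1 to 50.1 CPM in the other 4. Cyp4a14, a fatty acid hydroxylase of the PPARα program, was at 6.70 and 139 CPM, against 1412 to 2133 CPM. Not all genes known to rise with fasting were low in these 2 controls. Lpin1, a member that fasting induces, was at 184 and 114 CPM, against 32.8 to 51.4 CPM in the other 4. In CCl4_PTH 1, Igfbp1, a secreted protein that insulin represses, was at 199.9 CPM, against 9.27 to 11.3 CPM in the other 5 CCl4_PTH livers, and Fgb, the acute-phase protein fibrinogen beta, was at 9623 CPM, against 1368 to 1952 CPM. Among the controls, Igfbp1 was highest in control 8 and lowest in control 1. The SD of log2 CPM within the control group had a median of 0.49 over the 42 genes, against 0.22 over all tested genes. In CCl4_PTH livers it was 0.36 against 0.21, and in CCl4 livers 0.38 against 0.24. Results are therefore given with and without these libraries where a call or a direction turned on them.

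**Figure D1:**
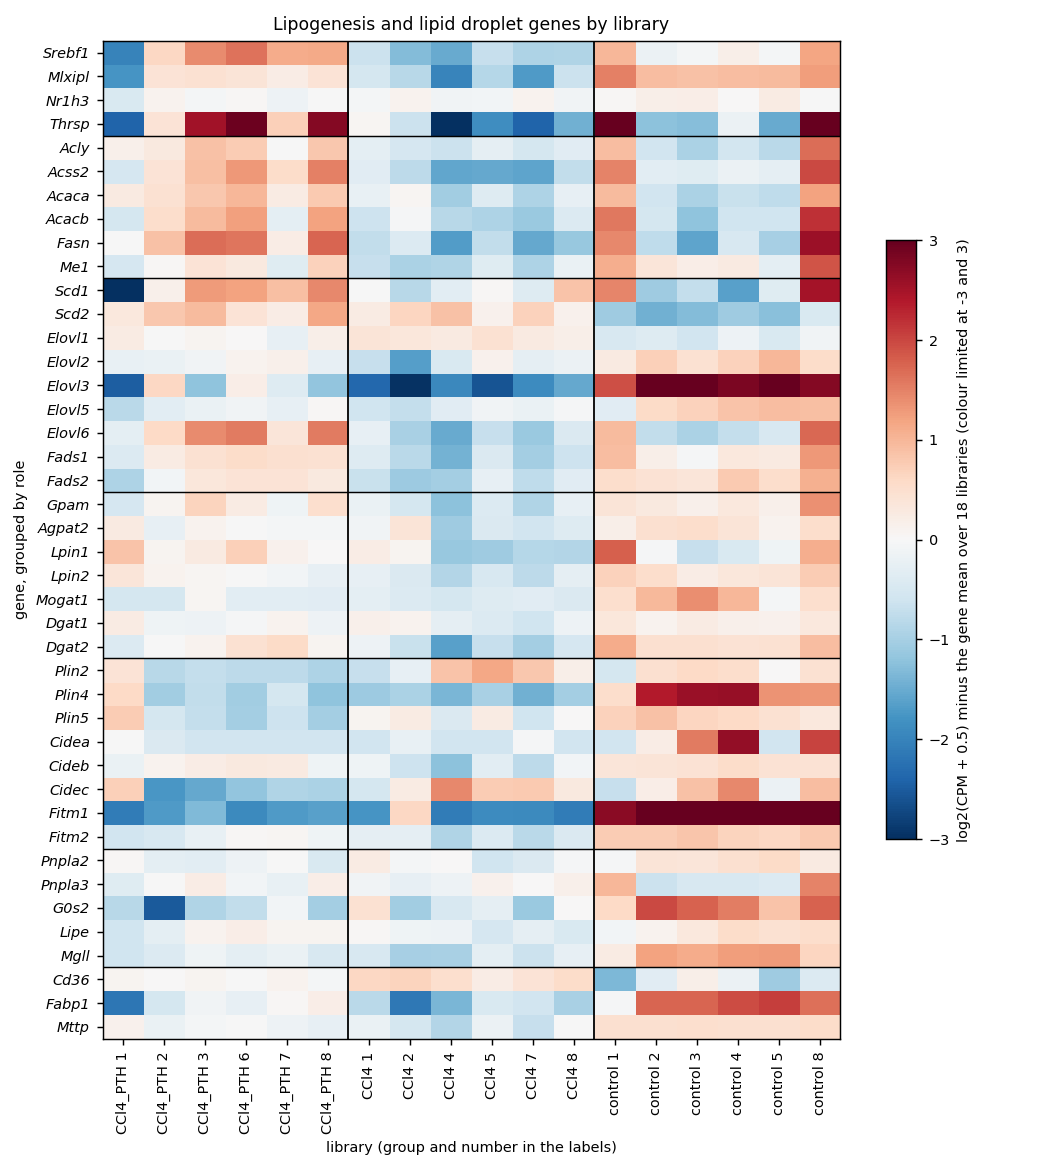
Levels of the 42 genes (rows, grouped by role) in the 18 libraries (columns, CCl4_PTH, CCl4 and control from left to right), as log2(CPM + 0.5) minus the gene's mean over all libraries, with red above and blue below that mean. Controls 1 and 8 are red in the synthesis genes, and CCl4_PTH 1 is blue in many genes in which the other 5 CCl4_PTH livers are red.

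Most of the list was lower in CCl4 than in control livers. Of the 42 genes, 32 were lower and 3 were higher (Scd2, Elovl1 and Cd36), whereas 47.4% of all tested genes were called in this comparison, 21.2% of all as lower and 26.3% of all as higher. The median log2 fold change of the 42 was -1.06, against 0.05 over all tested genes. In 19 genes every CCl4 liver lay below every control liver, and in 3 every CCl4 liver lay above, against 11.3% and 14.8% of all tested genes. Without controls 1 and 8, 24 genes were lower and 4 higher, against 20.3% and 23.5% of all tested genes in that fit. Acacb, Acss2, Elovl6, Fasn, Lpin1, Plin5, Srebf1 and Thrsp no longer passed, and Pnpla3 was called higher. Without these 2 controls and CCl4_PTH 1, 28 genes were lower and 4 higher, against 21.6% and 24.8% of all tested genes. Acss2, Plin5 and Srebf1 then passed again as lower, and Nr1h3 was also called lower. That exclusion was chosen after the data were seen. Controls 1 and 8 were singled out for their lipogenic levels, with earlier results of these data known, so counts without them describe the other libraries and are no independent test.

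Set against CCl4 livers, CCl4_PTH livers had 12 of the 42 genes higher and 1, Plin2, lower, whereas 12.1% of all tested genes were called, 7.1% of all as higher and 4.95% of all as lower. The median log2 fold change was 0.57, against -0.03 over all tested genes. Every CCl4_PTH liver lay above every CCl4 liver in 4 genes (Acly, Acaca, Fasn and Lpin2) and below in 1 (Cd36), against 2.2% and 1.87% of all tested genes. The 12 were Srebf1, Mlxipl, Acss2, Fasn, Elovl3, Elovl6, Fads1, Fads2, Gpam, Lpin2, Dgat2 and Cideb. They are 2 of 4 regulators, 2 of 6 synthesis genes, 4 of 9 genes of elongation and desaturation, 3 of 7 of triglyceride assembly and 1 of 8 of the droplet coat and growth. All 12 had also been lower in CCl4 than in control livers, but the CCl4 libraries are shared by both comparisons, so the counts are not independent. Without CCl4_PTH 1, 15 genes were higher and 3 lower, with Acaca, Thrsp and Fitm2 added to those higher and Cidec and Plin5 to those lower. In that fit 10.3% of all tested genes were higher and 7.06% lower, so the 3 lower were near the share of all genes.

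CCl4_PTH livers against control livers showed 2 genes higher (Scd2 and Elovl1) and 18 lower, with a median log2 fold change of -0.47, against 0.04 over all tested genes. Of all tested genes 27.7% were called in this comparison, 17.4% of all as higher and 10.3% of all as lower. Every CCl4_PTH liver lay above every control in 1 gene and below in 9, against 9.79% and 4.67% of all tested genes. The 18 lower genes were mostly droplet coat, lipolysis and fatty acid handling genes: 7 of 8 genes of the droplet coat and growth, 3 of 5 of lipolysis and 2 of 3 of uptake, binding and export, but 0 of 6 genes of fatty acid synthesis. In that role edgeR called 0 in either direction, with 0 at an unadjusted p under 0.05, DESeq2 called 0, and limma-voom called Acaca and Fasn higher. Without controls 1 and 8, 16 genes were lower and 10 higher, against 10% and 15.4% of all tested genes in that fit. Acaca, Acacb, Acly, Acss2, Elovl6, Fasn, Pnpla3 and Thrsp were then called higher, and Lpin2 and Mlxipl no longer passed. Without these 2 controls and CCl4_PTH 1, 17 were lower and 12 higher (9.98% and 15.3% of all tested genes), with Scd1 and Srebf1 also higher. Controls 1 and 8 were singled out for their high lipogenic levels, so genes called higher without them describe the other controls and are no independent test. Leaving out CCl4_PTH 1 as well was chosen after the data were seen. CCl4_PTH and CCl4 livers are both compared with the same 6 controls.

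Other settings of the fit moved calls as well. With the replicate number of the labels as a block, 5 of the 35 calls were lost for CCl4 against control. That block lost all 13 for CCl4_PTH against CCl4 and 7 of the 20 for CCl4_PTH against control, although the numbers did not pair the samples, as described below. For CCl4 against control, 13 of the 35 calls were lost without TMM factors (Acacb, Agpat2, Dgat1, Elovl2, Elovl5, Elovl6, Fasn, Gpam, Lipe, Lpin1, Plin5, Pnpla2 and Srebf1). There, 6 were lost with limma-voom (Acacb, Cidea, Elovl6, Fasn, Lpin1 and Thrsp). The fit without the low-count filter lost 4 (Acacb, Elovl6, Lpin1 and Plin5). The fit of the 2 groups alone lost 3 (Acacb, Elovl6 and Lpin1), and DESeq2 lost 1 (Cidea). For CCl4_PTH against CCl4, 5 of the 13 were lost without TMM factors (Elovl6, Fads2, Fasn, Gpam and Lpin2). The fit without the filter lost 3 (Fasn, Gpam and Plin2), and so did the fit of the 2 groups alone (Cideb, Mlxipl and Plin2). With limma-voom 1 was lost (Elovl3), and with DESeq2 0. For CCl4_PTH against control, 9 of the 20 were lost without TMM factors (Cidec, Elovl2, Elovl5, Lpin2, Mlxipl, Mttp, Plin2, Plin5 and Pnpla2). The fit without the filter lost 3 (Cidec, Mlxipl and Plin2). The fit of the 2 groups alone lost Cidec and did not test Cidea, which failed the filter there, so 18 of the 20 calls were kept. Both DESeq2 and limma-voom lost Cidea.

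**Figure D2:**
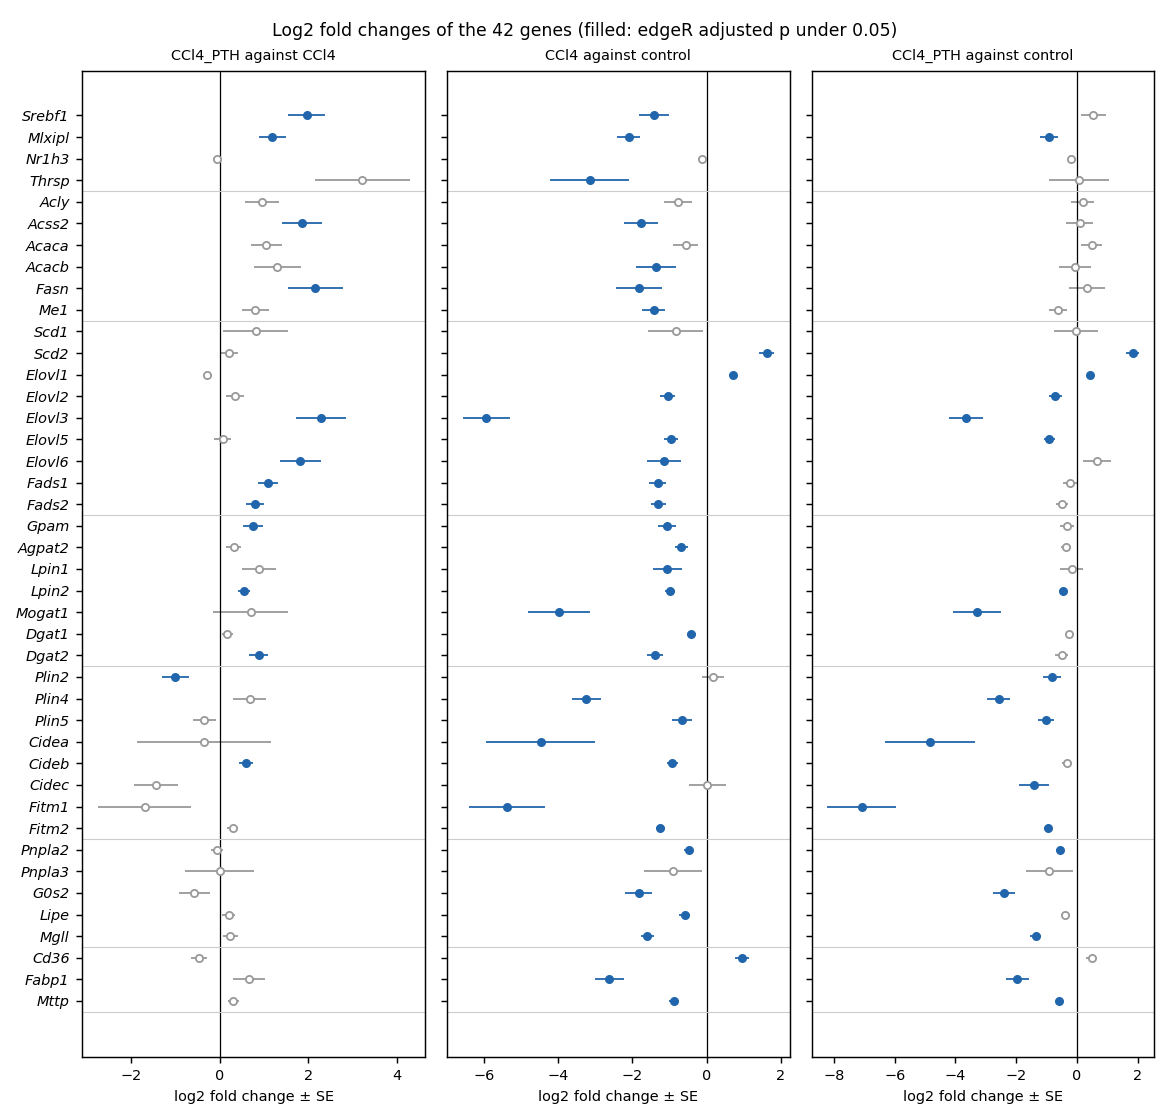
Log2 fold change (points) with its standard error (bars) for each of the 42 genes, grouped by role from top to bottom, in CCl4_PTH against CCl4 (left), CCl4 against control (middle) and CCl4_PTH against control (right). Filled points passed the adjusted p threshold of 0.05: 13 genes on the left, 35 in the middle and 20 on the right.

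Of the 4 transcription factors and coactivators, 3 (Srebf1, Mlxipl and Thrsp) were lower in CCl4 than in control livers, and 2 (Srebf1 and Mlxipl) were higher in CCl4_PTH than in CCl4 livers. Without controls 1 and 8, Mlxipl alone of the 3 was still called lower in CCl4 livers. Srebf1, the insulin-responsive master regulator of fatty acid synthesis, lay at 23.0 to 294 CPM in CCl4_PTH livers (median 205), 32.4 to 60.4 in CCl4 livers (median 49.9) and 83.0 to 216 in control livers (median 98.9). It was lower in CCl4 than in control livers (log2 fold change -1.42 ± 0.41, adjusted p = 0.00811), with every CCl4 liver below every control. It was higher in CCl4_PTH than in CCl4 livers (1.96 ± 0.42, adjusted p = 0.00713): 5 CCl4_PTH livers, at 145 to 294 CPM, lay above every CCl4 liver, and CCl4_PTH 1, at 23.0 CPM, lay below all of them. Without controls 1 and 8 the first difference was -0.98 and no longer passed (adjusted p = 0.0676), although every CCl4 liver lay below the other 4 controls, at 83.0 to 107 CPM. Without CCl4_PTH 1 as well, an exclusion chosen after the data were seen, Srebf1 was called lower again. Mlxipl, which encodes the sugar-responsive ChREBP, lay at 29.9 to 143 CPM in CCl4_PTH livers (median 135), 25.8 to 71.5 in CCl4 livers (median 56.8) and 189 to 293 in control livers (median 198). Every CCl4 liver and every CCl4_PTH liver lay below every control for this gene (-2.11 ± 0.31, adjusted p = 2.80e-05 for CCl4 and -0.92 ± 0.30, adjusted p = 0.0297 for CCl4_PTH), and it was higher in CCl4_PTH than in CCl4 livers (1.19 ± 0.30, adjusted p = 0.0174). Its difference between CCl4_PTH and control livers was not called without control 1 or without control 8. Nr1h3, which encodes the oxysterol receptor LXRα, an activator of Srebf1 transcription, lay at 23.7 to 35.2 CPM in CCl4_PTH livers (median 31.7), 30.0 to 35.3 in CCl4 livers (median 31.0) and 32.2 to 38.9 in control livers (median 35.1). Its groups overlapped in all 3 comparisons, and with all libraries and TMM factors it passed the edgeR test in none (log2 fold changes -0.058, -0.14 and -0.19 for CCl4_PTH against CCl4, CCl4 against control and CCl4_PTH against control). Without TMM factors Nr1h3 was called higher in CCl4 than in control livers (0.46, adjusted p = 0.0124). Without controls 1 and 8 and CCl4_PTH 1 it was called lower there.

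Thrsp, or Spot 14, a small activator of lipogenesis that responds to thyroid hormone and to feeding, ranged most widely of the 4 on a log scale, at 3.28 to 152 CPM in CCl4_PTH livers (median 72.6), 1.92 to 20.0 in CCl4 livers (median 5.86) and 6.41 to 236 in control livers (median 12.5). It was lower in CCl4 than in control livers (log2 fold change -3.16 ± 1.06, adjusted p = 0.0212), but the control level rested on 163 CPM in control 1 and 236 CPM in control 8, against 6.41 to 17.1 CPM in the other 4 controls, and the call was lost without control 8 or without CCl4 4. Its difference between CCl4_PTH and CCl4 livers did not pass (3.22 ± 1.06, adjusted p = 0.0576). The 5 CCl4_PTH livers other than number 1 held 25.7 to 152 CPM, above every CCl4 liver, and without CCl4_PTH 1, CCl4 1 or control 8, with DESeq2 or in a fit of these 2 groups alone the gene was called higher.

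Promoter sequence was taken from RefSeq on build GRCm38.p6, in windows of 250 bases before and 50 bases after the annotated start. Of the 42 genes, 35 were matched, with 49 windows. The windows were searched on both strands for the letters CCAAT, where NF-Y binds next to SREBP at many lipogenic promoters, for the E-box CACGTG, the core of ChREBP and clock factor sites, for the sterol element TCACNCCAC, for the TATA box TATAAA, and for direct repeats of AGGNCA with 1 base between them (DR1, the form bound by HNF4α and PPARα) or with 4 (DR4, the form bound by LXR). CCAAT was in 19 of the 49 windows (38.8%), against 37.4% of all 32851 RefSeq promoters, and the E-box was in 6 (12.2%), against 7.15%. The sterol element was in 1 window, of Mlxipl (1.24% of all promoters hold it), the TATA box in 3 (6.12%, against 13.6%), DR1 in 2, of Elovl1 and Fabp1 (4.08%, against 0.381%), and DR4 in 0 (0.253%). These are matches of letters and not shown sites. The 250 bases before the start are shown for Fasn and Thrsp, as feeding-responsive genes with a wide spread among the controls, and for Fabp1, the most abundant fatty acid handling gene of the list. Capitals mark the matches: CCAAT or its complement ATTGG in Fasn (chr11:120824548-120824797, minus strand), where a pair of matches overlaps as CCAATTGG, and in Thrsp (chr7:97417551-97417800, minus strand), and DR1, read on the opposite strand, and the TATA box in Fabp1 (chr6:71199629-71199878, plus strand).
Fasn: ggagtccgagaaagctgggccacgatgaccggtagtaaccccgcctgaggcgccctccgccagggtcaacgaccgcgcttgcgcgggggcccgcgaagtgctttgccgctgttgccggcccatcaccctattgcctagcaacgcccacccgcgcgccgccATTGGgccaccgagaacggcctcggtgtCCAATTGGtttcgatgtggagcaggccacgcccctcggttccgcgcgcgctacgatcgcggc
Thrsp: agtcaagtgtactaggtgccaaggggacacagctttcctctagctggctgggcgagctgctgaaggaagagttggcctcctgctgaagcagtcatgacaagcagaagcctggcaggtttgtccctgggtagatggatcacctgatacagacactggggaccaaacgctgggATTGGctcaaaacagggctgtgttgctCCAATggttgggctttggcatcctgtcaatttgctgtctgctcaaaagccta
Fabp1: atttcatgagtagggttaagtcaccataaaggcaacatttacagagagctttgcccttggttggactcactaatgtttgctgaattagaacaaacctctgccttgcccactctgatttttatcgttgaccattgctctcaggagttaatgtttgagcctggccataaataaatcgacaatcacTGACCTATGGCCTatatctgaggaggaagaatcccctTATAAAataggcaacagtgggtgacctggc

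The enzymes of fatty acid synthesis ranged more widely among the controls than any other role, with a mean log2(CPM + 0.5) of 5.49 in control 3 and 8.23 in control 8, and their comparisons with control livers turned on controls 1 and 8. Fasn lay at 185 to 632 CPM in CCl4_PTH livers (median 458), 58.6 to 140.4 in CCl4 livers (median 98.1) and 61.9 to 1118 in control livers (median 123). Every CCl4_PTH liver lay above every CCl4 liver (log2 fold change 2.16 ± 0.62, adjusted p = 0.0309), although the call was lost without CCl4 4 or 7, or without CCl4_PTH 3, 6 or 8, 1 at a time. Its lower level in CCl4 than in control livers (-1.83 ± 0.61, adjusted p = 0.0205) was lost without control 8 or without CCl4 4, and without controls 1 and 8 together it was -0.11. Between CCl4_PTH and control livers Fasn did not pass (0.33 ± 0.59, adjusted p = 0.722). Against the 4 controls other than 1 and 8 the value was 2.07, which is a description, since these 2 were the controls highest in Fasn. Acly, the ATP citrate lyase that makes cytosolic acetyl-CoA, lay at 109.6 to 202 CPM in CCl4_PTH livers (median 160.4), 69.6 to 90.9 in CCl4 livers (median 81.7) and 56.6 to 353 in control livers (median 74.1). Every CCl4_PTH liver was above every CCl4 liver, but the test was not passed (0.95 ± 0.38, adjusted p = 0.11). It was passed without control 8, without controls 1 and 8, with DESeq2 and in a fit of these 2 groups alone. Between CCl4 and control livers Acly did not pass (-0.76 ± 0.38, adjusted p = 0.106) except without control 3 or without control 5. Acaca, the acetyl-CoA carboxylase that makes malonyl-CoA for synthesis, lay at 98.0 to 167 CPM in CCl4_PTH livers (median 129), 40.0 to 86.2 in CCl4 livers (median 66.4) and 42.9 to 192 in control livers (median 53.8). Again there was no overlap between CCl4_PTH and CCl4 livers, but the adjusted p was just over the threshold (1.05 ± 0.35, adjusted p = 0.0575), and the gene was called higher without CCl4_PTH 1, without control 1, 3 or 8, with DESeq2, with limma-voom and in a fit of these 2 groups alone. Acss2, which makes acetyl-CoA from acetate, lay at 34.1 to 139.7 CPM in CCl4_PTH livers (median 81.5), 15.9 to 38.5 in CCl4 livers (median 22.4) and 37.8 to 195 in control livers (median 41.8). Its level was lower in CCl4 than in control livers (-1.78 ± 0.46, adjusted p = 0.00396) and higher in CCl4_PTH than in CCl4 livers (1.86 ± 0.46, adjusted p = 0.0155), and its first call was lost without controls 1 and 8 together.

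Acacb, the carboxylase isoform whose product restrains fatty acid oxidation, and Me1, the malic enzyme that supplies NADPH, completed this role. Both were lower in CCl4 than in control livers (log2 fold change -1.37 ± 0.53, adjusted p = 0.0436 for Acacb and -1.43 ± 0.31, adjusted p = 0.00104 for Me1). Acacb changed sign without controls 1 and 8, at 0.064, and its call was also lost without any of control 1, control 8 and CCl4 1, 4, 5, 7 or 8. Neither passed between CCl4_PTH and CCl4 livers (1.29 and 0.80), but both were called higher without controls 1 and 8 and in a fit of these 2 groups alone, and Me1 also without control 8 and with DESeq2.

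**Figure D3:**
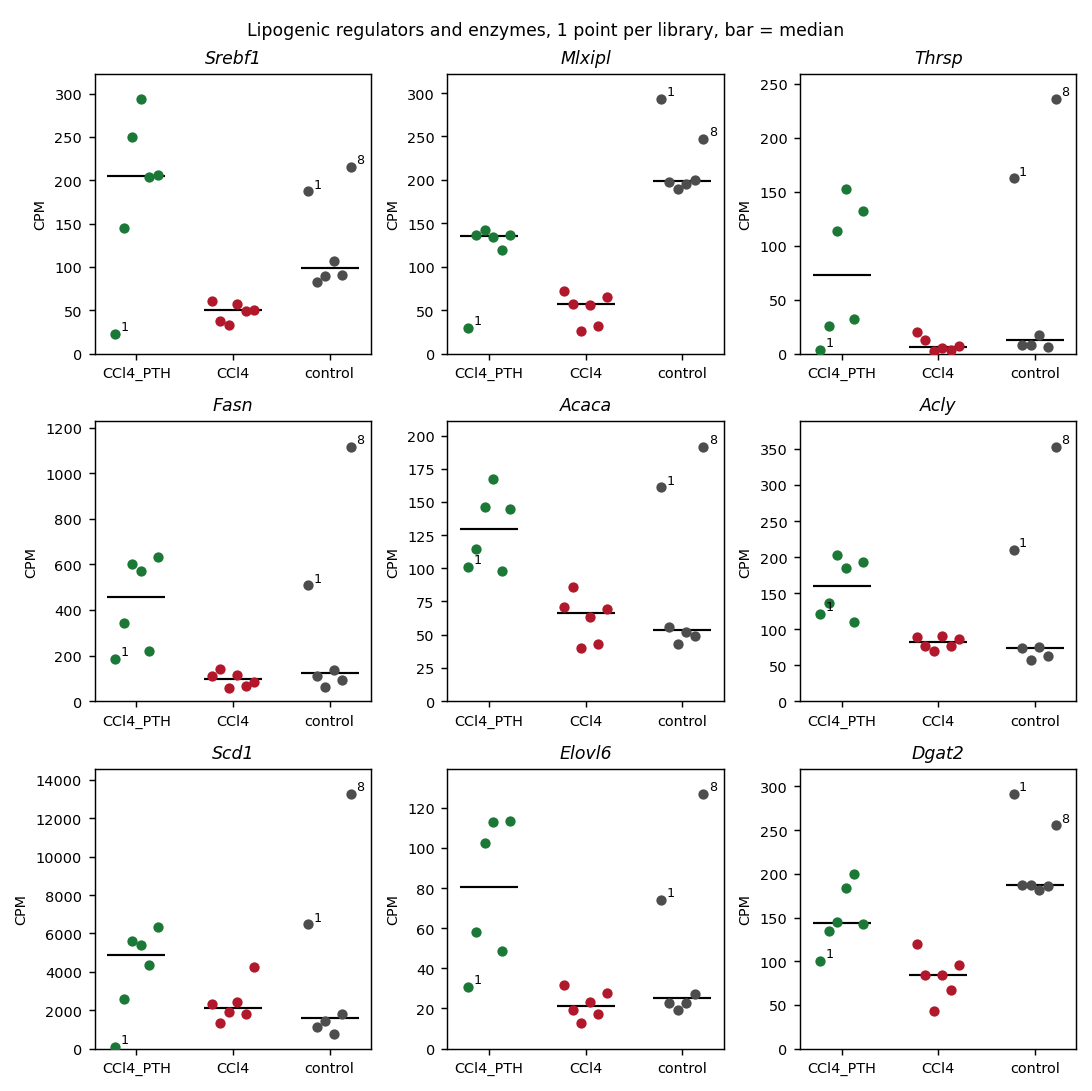
CPM of 9 lipogenic regulators and enzymes in each library (1 point per library, bar at the group median; each gene has its own linear axis from 0), with CCl4_PTH 1, control 1 and control 8 numbered. Control 1 and control 8 lie far above the other 4 controls in Thrsp, Fasn, Acaca, Acly, Scd1 and Elovl6, and CCl4_PTH 1 lies below its group in Srebf1, Mlxipl, Thrsp and Scd1.

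Desaturases and elongases split into genes that were lower with CCl4 and genes that were higher. Scd1 lay at 103 to 6336 CPM in CCl4_PTH livers (median 4861), 1313 to 4237 in CCl4 livers (median 2100.0) and 750.2 to 13259 in control livers (median 1618). It passed in no comparison: the log2 fold change was 0.81 for CCl4_PTH against CCl4 and -0.83 for CCl4 against control, with standard errors of 0.73 and 0.73. CCl4_PTH 1, at 103 CPM, was the lowest of all 18 livers, and the other 5 CCl4_PTH livers held 2587 to 6336 CPM. Scd2, a desaturase that is low in adult mouse hepatocytes, lay at 14.9 to 29.2 CPM in CCl4_PTH livers (median 20.0), 14.0 to 24.0 in CCl4 livers (median 17.8) and 4.44 to 9.18 in control livers (median 5.45). Every CCl4 liver (log2 fold change 1.62 ± 0.20, adjusted p = 4.41e-06) and every CCl4_PTH liver (1.83 ± 0.20, adjusted p = 6.24e-06) lay above every control. Scd1 and Scd2 are similar genes of 1 family, and how the authors' counting shared reads between such copies was not given in the sources used here. Elovl1, an elongase of very long saturated chains, was also higher in CCl4 (0.70 ± 0.10, adjusted p = 1.64e-05) and CCl4_PTH livers (0.42 ± 0.10, adjusted p = 0.00451) than in controls. Its exons overlap those of Cdc20, a mitotic gene on the other strand, whose medians were 1.53 CPM in CCl4_PTH, 1.75 CPM in CCl4 and 0.138 CPM in control livers, and whose part in the Elovl1 counts was not tested. Macrophage markers moved the same way between CCl4 and control livers: 10 of 12 were higher, against 26.3% of all tested genes. They summed to 622 to 1550.5 CPM in CCl4 livers and 177 to 255 CPM in control livers. Markers of cholangiocytes (6 of 6), lymphocytes (6 of 6) and stellate cells (6 of 8) were also higher. Between CCl4_PTH and CCl4 livers the median log2 fold change of macrophage markers was -0.56, against 0.21 for Scd2 and -0.28 for Elovl1. The part of any cell type in the result was not tested.

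Elovl3, an elongase of saturated and monounsaturated chains known for its circadian and sex-dependent expression in mouse liver, had the lowest log2 fold change of the list in CCl4 livers with all libraries in the fit. Without CCl4 2, Fitm1 (described below) was lower still, at -8.66, whereas Elovl3 reached -6.24 at the lowest. It lay at 0.460 to 7.62 CPM in CCl4_PTH livers (median 2.70), 0.181 to 1.32 in CCl4 livers (median 0.713) and 19.9 to 81.5 in control livers (median 39.6). Every CCl4 liver was below every control (log2 fold change -5.94 ± 0.64, adjusted p = 1.68e-06), and it was higher in CCl4_PTH than in CCl4 livers (2.28 ± 0.56, adjusted p = 0.0158) while still below every control (-3.66 ± 0.56, adjusted p = 0.000188). Of the CCl4_PTH livers, number 1 alone, at 0.460 CPM, overlapped the CCl4 livers. Elovl6, which lengthens palmitate and is a SREBP-1c target, lay at 30.8 to 114 CPM in CCl4_PTH livers (median 80.3), 12.9 to 31.9 in CCl4 livers (median 21.1) and 19.5 to 127 in control livers (median 25.1). It was higher in CCl4_PTH than in CCl4 livers (1.82 ± 0.47, adjusted p = 0.0194), a call lost without CCl4 4. CCl4 livers were lower than control livers just inside the threshold (-1.15 ± 0.46, adjusted p = 0.0499), a call lost in 10 of the 18 fits that left out 1 library (control 1 or 8, CCl4 2, 4, 5, 7 or 8, or CCl4_PTH 2, 3 or 7, since all groups share 1 estimate of the spread). Fads1, the delta-5 desaturase of polyunsaturated fats, lay at 112 to 219 CPM in CCl4_PTH livers (median 205), 55.4 to 113 in CCl4 livers (median 90.8) and 146 to 369 in control livers (median 183). This gene was lower in CCl4 than in control livers, with no overlap (-1.32 ± 0.23, adjusted p = 0.00012), and had the smallest p of the list between CCl4_PTH and CCl4 livers (1.08 ± 0.23, adjusted p = 0.00649), where CCl4_PTH 1 alone overlapped the CCl4 group. Fads2, the delta-6 desaturase beside it, followed with -1.30 and 0.80 in these comparisons, and both passed. Elovl2 and Elovl5, the elongases of polyunsaturated chains, were lower in CCl4 (-1.05 and -0.97) and in CCl4_PTH livers (-0.71 and -0.91) than in controls, and neither passed between CCl4_PTH and CCl4 livers (0.34 and 0.062).

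All 7 genes of triglyceride assembly were lower in CCl4 than in control livers, and 3 of them were higher in CCl4_PTH than in CCl4 livers. Mogat1, among the 7, had passed the expression filter through the control livers, where it was highest, so its lower call is no independent result. Gpam, the mitochondrial acyltransferase that starts glycerolipid synthesis, lay at 74.1 to 168 CPM in CCl4_PTH livers (median 119.6), 45.0 to 91.9 in CCl4 livers (median 76.1) and 118 to 273 in control livers (median 131). It fell in CCl4 livers without overlap (log2 fold change -1.06 ± 0.24, adjusted p = 0.00107), and its higher level in CCl4_PTH livers (0.75 ± 0.23, adjusted p = 0.0435) was called in 8 of the 18 fits that left out 1 library: the call was lost without control 4, CCl4 2, 4, 5 or 7, or CCl4_PTH 2, 3, 6, 7 or 8. Dgat2, the acyltransferase that makes most triglyceride from newly made fatty acids, lay at 101 to 200.0 CPM in CCl4_PTH livers (median 144), 43.1 to 120.2 in CCl4 livers (median 84.1) and 182 to 291 in control livers (median 187). Every CCl4 liver was below every control (-1.39 ± 0.21, adjusted p = 3.23e-05), and the gene was higher in CCl4_PTH than in CCl4 livers (0.88 ± 0.21, adjusted p = 0.012). Lpin2, a phosphatidate phosphatase, lay at 183 to 276 CPM in CCl4_PTH livers (median 219.6), 117 to 182 in CCl4 livers (median 157) and 250.2 to 366 in control livers (median 294). All 6 CCl4_PTH livers were above all 6 CCl4 livers (0.54 ± 0.14, adjusted p = 0.0148), and all 6 CCl4 livers were below all 6 controls (-0.995 ± 0.14, adjusted p = 1.01e-05).

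Lpin1, the isoform that fasting and glucocorticoids induce, was at 184 CPM in control 1 and 114 CPM in control 8, against 32.8 to 51.4 CPM in the other controls. Its call in CCl4 livers (log2 fold change -1.07 ± 0.39, adjusted p = 0.0324) was lost without control 1 or 8 or without CCl4 4, 5, 7 or 8. Mogat1, a monoacylglycerol acyltransferase known for its induction in fatty mouse liver, was near the detection limit, at 0 to 0.244 CPM in CCl4_PTH livers (median 0.0691), 0 to 0.0866 in CCl4 livers (median 0.0449) and 0.183 to 1.39 in control livers (median 0.708). Mogat1 was lower in CCl4 (-3.99 ± 0.84, adjusted p = 0.000691) and in CCl4_PTH livers (-3.30 ± 0.80, adjusted p = 0.00486) than in controls, with 45 counts in all in the CCl4_PTH group, 24 in the CCl4 group and 271 in the control group. Agpat2, which adds the second acyl chain, and Dgat1, which also esterifies dietary fat, were lower in CCl4 than in control livers with TMM factors (-0.68 and -0.42), whereas without the factors Dgat1 turned to 0.15.

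Of the 8 droplet coat and growth genes, 1 was higher (Cideb) and 1 lower (Plin2) in CCl4_PTH than in CCl4 livers, whereas 6 were lower in CCl4 and 7 in CCl4_PTH livers than in control livers. Plin2, the perilipin that coats hepatocyte droplets and whose level tracks stored fat, lay at 118 to 298 CPM in CCl4_PTH livers (median 131), 139 to 505 in CCl4 livers (median 325) and 156 to 338 in control livers (median 310.0). It was lower in CCl4_PTH than in CCl4 livers (log2 fold change -1.01 ± 0.30, adjusted p = 0.0354) and lower than in control livers (-0.83 ± 0.30, adjusted p = 0.0478), and it did not pass between CCl4 and control livers (0.18 ± 0.30, adjusted p = 0.651). In 5 CCl4_PTH livers it lay within 118 to 137 CPM, below every CCl4 liver, while CCl4_PTH 1 was at 298 CPM. Without that library the difference from CCl4 livers was -1.27 (adjusted p = 0.00395). With it, the call was lost without CCl4 4, 5 or 7 or without CCl4_PTH 2, 3, 6, 7 or 8, and that against control livers without control 2, 3, 4 or 8, without CCl4 4 or without any of the same 5 CCl4_PTH livers. Cidec, which drives the growth of large droplets in fatty hepatocytes, lay at 0.998 to 7.70 CPM in CCl4_PTH livers (median 1.89), 2.98 to 13.1 in CCl4 livers (median 6.81) and 2.58 to 13.1 in control livers (median 6.95). Cidec was lower in CCl4_PTH than in control livers (-1.42 ± 0.50, adjusted p = 0.0418), a call lost without control 3, 4 or 8 or without CCl4_PTH 2, 3, 6, 7 or 8, and it did not pass against CCl4 livers (-1.44 ± 0.50, adjusted p = 0.0668). CCl4_PTH 1 held 7.70 CPM and the other 5 held 0.998 to 2.19 CPM, below every CCl4 liver, and without CCl4_PTH 1, without CCl4 1, with DESeq2 or with limma-voom, it was called lower.

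Plin4, a perilipin of small droplets, lay at 4.29 to 16.2 CPM in CCl4_PTH livers (median 5.49), 3.58 to 5.25 in CCl4 livers (median 4.82) and 15.5 to 66.8 in control livers (median 42.2). Every CCl4 liver was below every control (log2 fold change -3.25 ± 0.39, adjusted p = 4.13e-06), and the CCl4_PTH livers were lower than the controls as well (-2.58 ± 0.38, adjusted p = 0.000112). CCl4_PTH 1, at 16.2 CPM, overlapped control 1, at 15.5 CPM. Plin5, which ties droplets to mitochondria, was at 18.1 CPM in CCl4_PTH 1 and 4.85 to 7.05 CPM in the rest of that group. Its level was lower in CCl4_PTH than in control livers (-1.02 ± 0.27, adjusted p = 0.00923), and its call in CCl4 livers (-0.67 ± 0.27, adjusted p = 0.0472) was lost without control 1, 2, 3 or 4, CCl4 4 or 7, or CCl4_PTH 7. Cidea, which is scarce in normal liver and known for brown fat and fatty liver, lay at 0 to 0.238 CPM in CCl4_PTH livers (median 0), 0 to 0.230 in CCl4 livers (median 0) and 0 to 4.10 in control livers (median 1.03). Cidea was lower in CCl4 (-4.48 ± 1.47, adjusted p = 0.018) and CCl4_PTH livers (-4.84 ± 1.49, adjusted p = 0.0219) than in controls, but 2 controls also held 0. Both calls were lost with DESeq2 and with limma-voom, and the second also without control 4. The gene had passed the filter with more than 10 counts in controls 2, 3, 4 and 8, CCl4 2 and 7 and CCl4_PTH 1. Of 10 adipocyte markers, Lep was at 0 CPM in all 18 libraries, Adipoq at 0 CPM in all but CCl4_PTH 2 (0.0737 CPM), and the adipocyte perilipin Plin1 at no more than 0.118 CPM. Cfd, which encodes adipsin, lay at 0.0201 to 0.171 CPM in CCl4_PTH livers, 0 to 0.0369 in CCl4 livers and 0.336 to 7.83 in control livers. Its highest values were in controls 3, 4 and 8 (7.83, 5.40 and 5.77 CPM), the same controls in which Cidea was highest (1.70, 4.10 and 2.55 CPM). Of the 10 markers 4 were tested, and 2 were higher and 1 lower in CCl4 than in control livers (26.3% and 21.2% of all tested genes). Fabp4, also a gene of macrophages and endothelium, held 94 to 169 counts in control libraries and 504 to 973 in CCl4 libraries. Aqp7 held 0 counts in every control and 0 to 64 in CCl4 libraries. The 10 markers, Fabp4 among them, summed to 6.60 to 9.60 CPM in CCl4_PTH livers, 8.19 to 15.5 in CCl4 livers and 2.69 to 12.8 in control livers. The part of adipocyte RNA in the Cidea values was not tested. Cideb, which helps load fat into VLDL, was lower in CCl4 than in control livers (-0.93 ± 0.15, adjusted p = 7.38e-05) and higher in CCl4_PTH than in CCl4 livers (0.59 ± 0.15, adjusted p = 0.0173).

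The FITM genes, which encode proteins of the endoplasmic reticulum that partition triglyceride into droplets, fell together in CCl4 livers. Fitm1 was at 0 to 0.355 CPM in CCl4_PTH livers (median 0.156), 0 to 2.76 in CCl4 livers (median 0.0705) and 13.3 to 27.0 in control livers (median 20.0). Every CCl4 (log2 fold change -5.39 ± 1.02, adjusted p = 0.000369) and CCl4_PTH liver (-7.09 ± 1.13, adjusted p = 0.000255) lay below every control, and CCl4 2, at 2.76 CPM, was the highest of these 12 livers. Fitm1 is known mainly from skeletal muscle, and the 6 muscle markers were near 0 in every library: they summed to 0.405 to 0.755 CPM in CCl4_PTH livers, 0.323 to 1.06 CPM in CCl4 livers and 0.104 to 0.55 CPM in control livers. Fitm2, the widely expressed form, had the smallest p of the list between CCl4 and control livers, at 20.6 to 32.4 CPM in CCl4_PTH livers (median 27.4), 16.5 to 25.9 in CCl4 livers (median 23.1) and 47.8 to 55.8 in control livers (median 52.9). It was lower without overlap in CCl4 (-1.25 ± 0.13, adjusted p = 5.05e-07) and in CCl4_PTH livers (-0.95 ± 0.13, adjusted p = 2.91e-05) than in controls, and did not pass between CCl4_PTH and CCl4 livers (0.29 ± 0.13, adjusted p = 0.137).

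**Figure D4:**
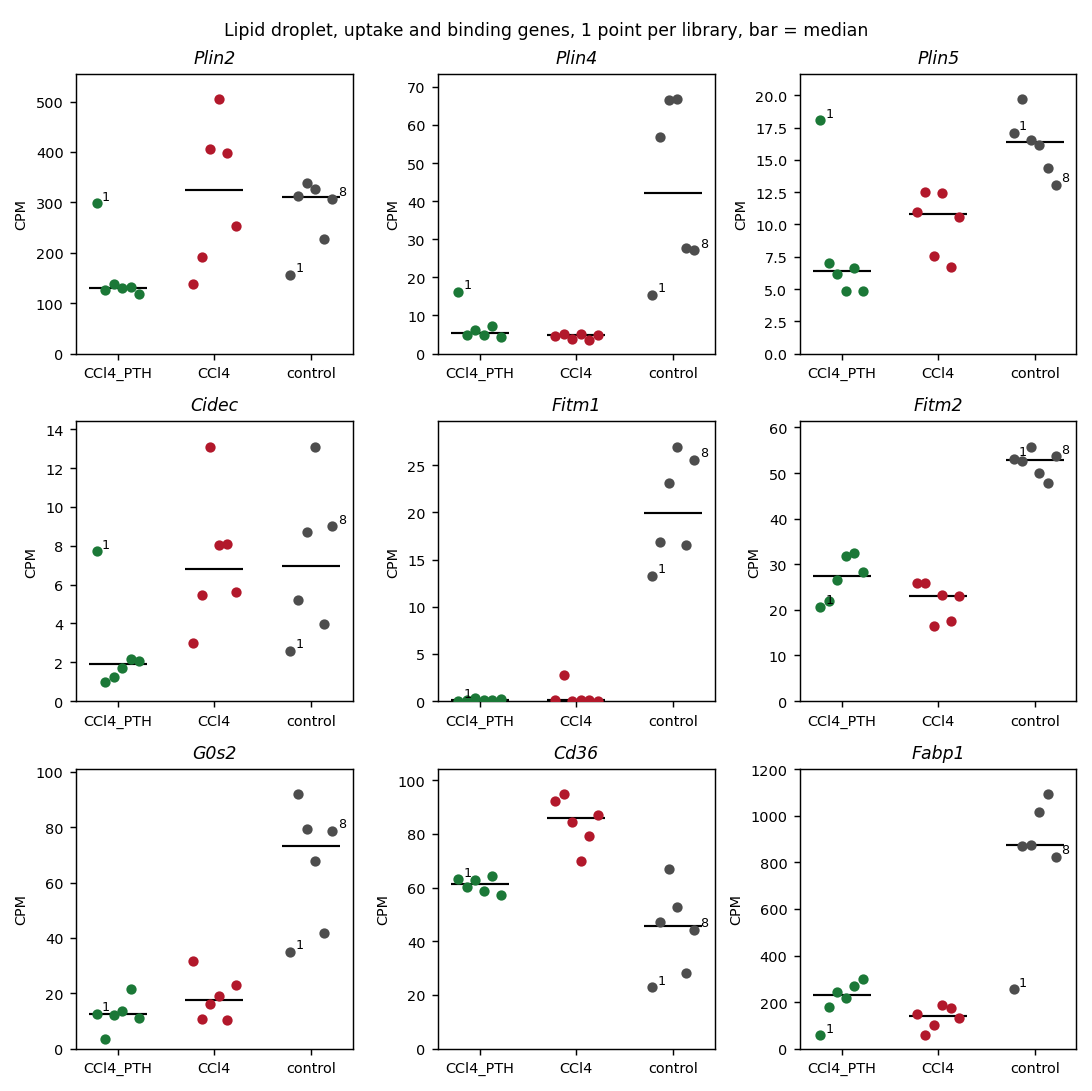
CPM of 9 droplet, lipolysis inhibitor, uptake and binding genes in each library (1 point per library, bar at the group median; each gene has its own linear axis from 0), with CCl4_PTH 1, control 1 and control 8 numbered. In Plin2 and Cidec 5 of 6 CCl4_PTH livers sit below every CCl4 liver, Fitm1 and Fitm2 are high in controls alone, and Cd36 is highest in CCl4 livers.

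Of the lipolysis genes, 4 of 5 were lower in CCl4 and 3 of 5 in CCl4_PTH livers than in controls, and 0 passed between CCl4_PTH and CCl4 livers with edgeR, with 0 at an unadjusted p under 0.05 and 0 called by DESeq2 or limma-voom. Mgll, the monoacylglycerol lipase, lay at 46.6 to 64.3 CPM in CCl4_PTH livers (median 55.8), 35.1 to 59.6 in CCl4 livers (median 47.9) and 84.6 to 173 in control livers (median 160.0). It was below every control in CCl4 (log2 fold change -1.60 ± 0.17, adjusted p = 1.03e-06) and in CCl4_PTH livers (-1.36 ± 0.17, adjusted p = 2.18e-05). G0s2, a protein that inhibits the lipase ATGL, was lower too (-1.83 ± 0.36, adjusted p = 0.000498 for CCl4 and -2.41 ± 0.37, adjusted p = 0.000173 for CCl4_PTH against control), again without overlap. Pnpla2, which encodes ATGL, and Lipe, the hormone-sensitive lipase, were lower in CCl4 than in control livers with TMM factors (-0.49 and -0.58) but turned to 0.12 and 0.015 without them. Pnpla3, a lipid remodelling protein of the droplet surface induced by SREBP-1c, was scarce, at 0.111 to 0.411 CPM in CCl4_PTH livers (median 0.255), 0.156 to 0.365 in CCl4 livers (median 0.254) and 0 to 1.68 in control livers (median 0.0764). It passed in no comparison, and 1.07 CPM in control 1 and 1.68 CPM in control 8 stood against 0 to 0.0916 CPM in the other controls. Without those 2 libraries, which were the controls highest in Pnpla3, the log2 fold changes against control were 2.23 for CCl4 and 2.25 for CCl4_PTH livers, against -0.91 in both comparisons with all controls.

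Cd36, the fatty acid translocase, was the 1 gene higher in CCl4 than in control livers among the 3 members of uptake, binding and export (log2 fold change 0.95 ± 0.18, adjusted p = 0.000303). It lay at 57.1 to 64.2 CPM in CCl4_PTH livers (median 61.4), 70.0 to 94.9 in CCl4 livers (median 85.8) and 22.9 to 67.0 in control livers (median 45.8). All 6 CCl4 livers were above all 6 controls, and all 6 CCl4_PTH livers were below all 6 CCl4 livers, although this second difference did not pass (-0.47 ± 0.18, adjusted p = 0.0953). Without control 1, without controls 1 and 8 (-0.46, adjusted p = 0.0482), without TMM factors or in a fit of these 2 groups alone, it did. Macrophages express Cd36 too, and their markers summed to 443 to 826 CPM in CCl4_PTH livers, 622 to 1550.5 CPM in CCl4 livers and 177 to 255 CPM in controls. The part of macrophage RNA in the Cd36 values was not tested. Fabp1, the liver fatty acid binding protein, was at 57.3 to 298 CPM in CCl4_PTH livers (median 231), 58.3 to 188 in CCl4 livers (median 140.3) and 255 to 1094 in control livers (median 873). Every CCl4 liver was below every control (-2.62 ± 0.38, adjusted p = 2.27e-05), and CCl4_PTH livers were lower than controls as well (-1.96 ± 0.37, adjusted p = 0.000826). Control 1, at 255 CPM, stood below the other 5 controls and overlapped the CCl4_PTH group. Mttp, which lipidates apolipoprotein B for export, lay at 137 to 178 CPM in CCl4_PTH livers (median 151), 88.2 to 161 in CCl4 livers (median 126) and 226 to 236 in control livers (median 227). It was below every control in CCl4 (-0.88 ± 0.13, adjusted p = 1.67e-05) and in CCl4_PTH livers (-0.58 ± 0.13, adjusted p = 0.00226).

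**Figure D5:**
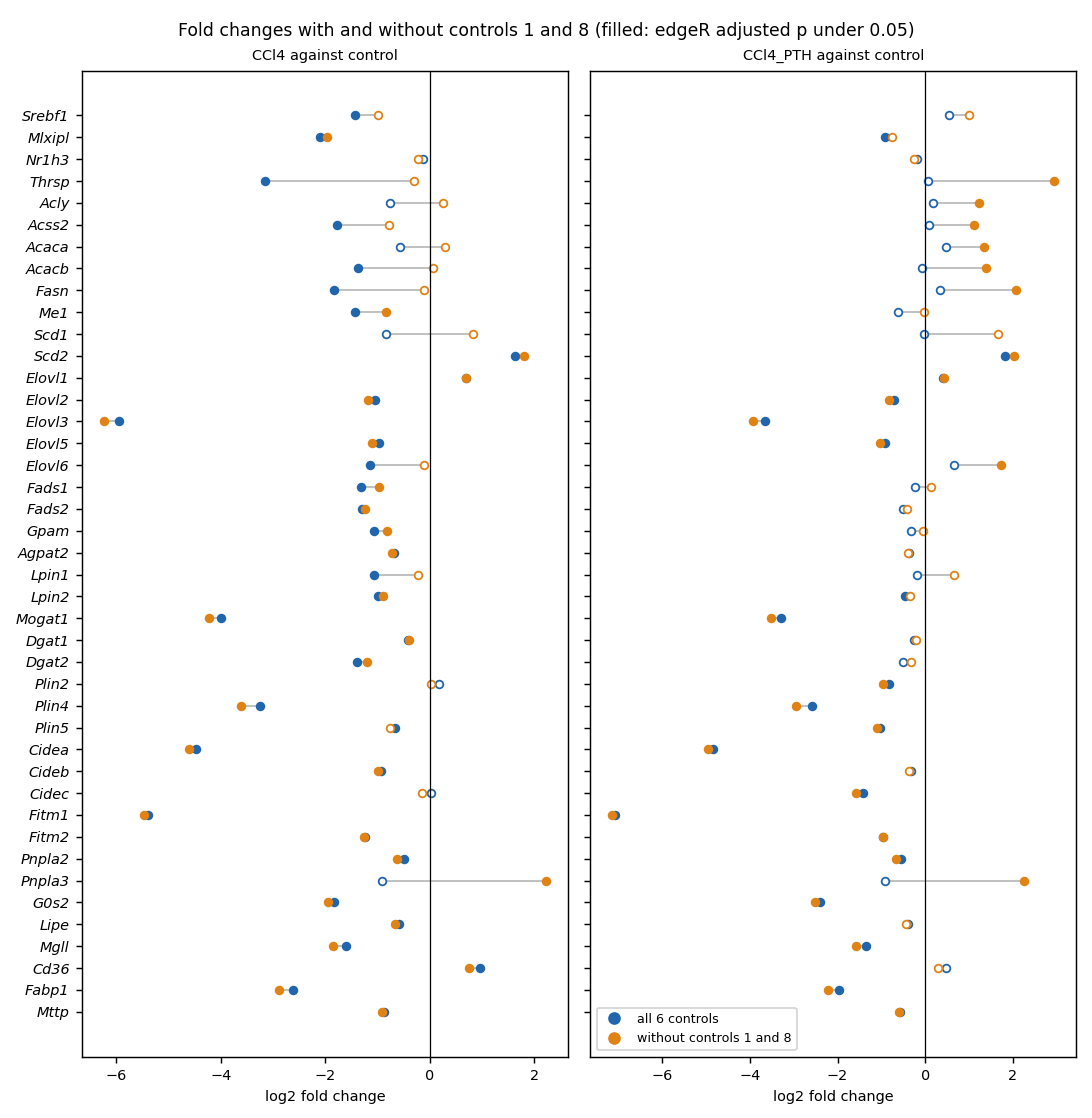
Log2 fold changes of the 42 genes with all 6 controls (blue) and without controls 1 and 8 (orange), for CCl4 against control (left) and CCl4_PTH against control (right); filled points passed the adjusted p threshold of 0.05. Without the 2 controls, lower genes in CCl4 livers number 24 instead of 32, and higher genes in CCl4_PTH livers 10 instead of 2.

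Compared per kilobase of exon, so that genes can be set beside each other, 2 genes dominated the list. Scd1 had a median of 994 CPM per kilobase in CCl4_PTH livers, 429 in CCl4 livers and 331 in control livers. Fabp1 had 418, 254 and 1579 CPM per kilobase in CCl4_PTH, CCl4 and control livers. Fabp1 was thus the most abundant of the 42 in control livers, and Scd1 in the other groups. Plin2 had 37.2 CPM per kilobase in CCl4_PTH livers, 92.6 in CCl4 livers and 88.3 in control livers, and came next after both in CCl4 livers. Fasn, at 41.8 CPM per kilobase in CCl4_PTH, 8.96 in CCl4 and 11.2 in control livers, and Srebf1, at 36.4, 8.86 and 17.5, had higher medians in CCl4_PTH than in control livers, although neither difference passed the test. Mogat1, Pnpla3 and Cidea were under 1 CPM per kilobase in every group, and Fitm1 was in CCl4_PTH and CCl4 livers (0.161 and 0.0726) but not in control livers (20.6).

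Further lists of pathway genes outside the 42 were counted in the same fit. Their shares are read against those of all tested genes. In CCl4 against control livers 26.3% of these were higher and 21.2% lower. In CCl4_PTH against CCl4 livers 7.1% were higher and 4.95% lower. In CCl4_PTH against control livers 17.4% were higher and 10.3% lower. Of 20 other regulators of lipogenesis, 11 were lower (55.0%) and 1 higher (5.0%) in CCl4 than in control livers, and 7 were higher (35.0%) and 1 lower in CCl4_PTH than in CCl4 livers. Scap, the escort of SREBP, was lower in CCl4 livers (log2 fold change -1.27 ± 0.13, adjusted p = 4.17e-07), as was Lpcat3, a phospholipid remodelling enzyme and LXR target (-0.92 ± 0.12, adjusted p = 6.64e-06). Mlxip, the ChREBP relative MondoA, was higher (0.97 ± 0.16, adjusted p = 7.16e-05). Insig1, the anchor that holds SCAP in the endoplasmic reticulum and is itself a SREBP target, was higher in CCl4_PTH than in CCl4 livers (1.66 ± 0.25, adjusted p = 0.000721), with Lpcat3 (0.70 ± 0.12, adjusted p = 0.00196), and Mlxip was lower (-0.52 ± 0.16, adjusted p = 0.0383). Of 25 tested genes of sugar supply and fatty acid synthesis, 12 were lower (48.0%) and 3 higher (12.0%) in CCl4 than in control livers, and 5 were higher (20.0%) and 1 lower in CCl4_PTH than in CCl4 livers. Elovl7, an elongase, was higher in CCl4 than in control livers (4.79 ± 0.51, adjusted p = 8.87e-07) and was lower in CCl4_PTH than in CCl4 livers (-1.89 ± 0.43, adjusted p = 0.00907). Pgd, which supplies NADPH, was higher in CCl4 livers (1.37 ± 0.22, adjusted p = 4.94e-05). Hsd17b12, a reductase of the elongation cycle, and Oxsm, a mitochondrial fatty acid synthesis enzyme, were lower in CCl4 livers (-0.94 and -0.73) and higher in CCl4_PTH than in CCl4 livers (0.73 and 0.62).

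Of 24 tested triglyceride and droplet genes outside the 42, 12 were lower (50.0%) and 6 higher (25.0%, near the share of all genes) in CCl4 than in control livers, and 5 were higher (20.8%) and 2 lower (8.33%) in CCl4_PTH than in CCl4 livers. Agpat4 and Lpin3, glycerolipid enzymes, were higher in CCl4 livers (1.56 and 0.84) and lower in CCl4_PTH than in CCl4 livers (-0.72 and -0.66). Gpat4, the acyltransferase of the endoplasmic reticulum, and Hsd17b11, a droplet dehydrogenase, were lower in CCl4 livers (-1.32 and -1.52). In CCl4_PTH against CCl4 livers the smallest p among those higher belonged to Gpat4 (0.73) and Pnpla8 (0.47). Of 19 genes of fatty acid uptake and activation, 10 were lower (52.6%) and 3 higher (15.8%) in CCl4 than in control livers, and 5 were higher (26.3%) and 2 lower (10.5%) in CCl4_PTH than in CCl4 livers. Lpl, the lipoprotein lipase, which adult hepatocytes hardly express, was higher in CCl4 livers (log2 fold change 3.36 ± 0.20, adjusted p = 1.90e-09), as was Fabp4, a fatty acid binding protein of macrophages, endothelium and fat (2.06 ± 0.20, adjusted p = 2.51e-07). Both were lower in CCl4_PTH than in CCl4 livers (-0.74 and -0.81) and higher than in control livers (2.62 and 1.25). Of the 12 macrophage markers, 10 were higher in CCl4 and 10 in CCl4_PTH than in control livers, and 2 were lower and 1 higher in CCl4_PTH than in CCl4 livers. Their part in the Lpl and Fabp4 values was not tested. The acyl-CoA ligase Slc27a5 was higher in CCl4_PTH than in CCl4 livers (1.12). Acbd5, an acyl-CoA binding protein, was lower in CCl4 livers (-1.06).

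Against control livers, CCl4_PTH livers had 1 of the 20 regulators higher and 7 lower (35.0%; Mlxip 0.45, Scap -0.58 and Usf2, an E-box factor, -0.55). Of the 25 synthesis and sugar supply genes, 3 were higher and 3 lower (12.0% each, with the lower share near that of all genes), with Elovl7 at 2.90 and Pgd at 0.86, and the mitochondrial fatty acid synthesis genes Mcat at -0.46 and Acsf3 at -0.39. Of the 24 triglyceride and droplet genes, 1 was higher (Agpat4, 0.85) and 4 were lower (16.7%), with Hsd17b11 at -1.05 and Gpat4 at -0.59. Of the 19 uptake and activation genes, 4 were higher (21.1%) and 7 lower (36.8%), with Acsl1, the main acyl-CoA synthetase of hepatocytes, at -1.63 and Fabp2 at -1.20.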

How the data were processed

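The authors deposited 1 table of estimated counts per gene for 54752 genes in 18 libraries of rRNA-depleted liver RNA (NEBNext kit, 150-base read pairs on an Illumina HiSeq instrument, per the labels' protocols). Of tools, the submitters' processing notes list Bowtie2 2.5.1, HISAT2 2.2.1, StringTie 2.1.5, cutadapt 4.2 and FastQC 0.11.9 without saying what each did, and build GRCm38. The counting tool, its annotation and its use of strand were not given in these sources. The counts were whole numbers and rounding changed none.

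Groups came from the labels. All 3 comparisons came from 1 fit over the 18 libraries with edgeR 4.0.16 in R 4.3.3: filterByExpr with a minimum count of 10 (21840 genes kept), TMM factors (0.652 to 1.46), a robust quasi-likelihood F test, and Benjamini-Hochberg adjustment over all tested genes with a threshold of 0.05. Higher, lower, rose and fell are used for genes past that threshold. Standard errors are approximate: the log2 fold change over the root of F. DESeq2 1.42.0 and limma 3.58.1 were alternatives. The fit was tested on simulated counts. All 45 within-group pairs of libraries differed by more than sampling noise (chi-square per gene at least 49.3). The labels give 1 mouse per library, so p-values measure the spread between mice.

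The members and lists were chosen with earlier results of these data known. Full values are given for 19 members listed by name and the 6 with the smallest p in CCl4 against control and in CCl4_PTH against CCl4, and for further pathway lists the 2 genes with the smallest p in each direction. 1 gene that this rule names is not reported here.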

Additional observations from a re-analysis of the deposited data

Results flagged for a closer look

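Among 126 sets of values, 1 for each gene in each group of 6 libraries, 15 had an end library whose gap to its nearest neighbour exceeded 0.625 of the group's range (Dixon's critical value at 95%). Chance alone passes this mark in about 1 in 20 independent sets of normally distributed values. CPM need not be so distributed, and the sets share libraries, so the 15 are a description and no test of an excess. CCl4_PTH 1 accounted for 6 of them: it was lowest of its group in Mlxipl, at 29.9 CPM, and highest in Plin2, at 298 CPM, Plin4, at 16.2 CPM, Plin5, at 18.1 CPM, Cidea, at 0.238 CPM, and Cidec, at 7.70 CPM. These are a regulator of synthesis on one side and perilipin and CIDE droplet genes on the other. Control 8 accounted for 3, as the highest control in Scd2, at 9.18 CPM, Gpam, at 273 CPM, and Mttp, at 236 CPM. Control 1 accounted for 2, as the lowest control in Elovl5, at 165 CPM, and Fabp1, at 255 CPM.

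The other 4 fell on 4 libraries. CCl4 8 was the highest CCl4 liver in Scd1, at 4237 CPM, CCl4 2 the highest in Fitm1, at 2.76 CPM, CCl4_PTH 3 the highest of its group in Mogat1, at 0.244 CPM, and control 4 the highest control in Cideb, at 61.5 CPM.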

How the results depend on the processing

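Direction and side of the threshold were recomputed under 9 other settings and with each of the 18 libraries left out in turn. Of the called genes, 29 of 35 stayed called in all 18 such fits for CCl4 against control, 9 of 13 for CCl4_PTH against CCl4 and 16 of 20 for CCl4_PTH against control. The cause of each change below was not tested, except that leaving out libraries or adding genes also changes what is fitted. Calls over all genes for CCl4_PTH against CCl4 ran from 1509 to 3854 when 1 library was left out, against 2632 (1509 without CCl4_PTH 7, 1704 without CCl4_PTH 6, 1523 without CCl4 4 and 1598 without CCl4 7), and lower members from 0 to 3, against 1: 0 without CCl4 4, 5 or 7 or CCl4_PTH 2, 3, 6, 7 or 8, 2 without CCl4 1 or control 1 and 3 without CCl4_PTH 1. Without TMM factors the members counted 5 higher and 19 lower for CCl4 against control (51.6% and 4.86% of all tested genes). They counted 7 higher and 2 lower for CCl4_PTH against CCl4 (2.18% and 2.84%), and 9 lower for CCl4_PTH against control (1.62%). Calls over all genes were then 1097 for CCl4_PTH against CCl4, and 9912 for CCl4_PTH against control, against 6051. For CCl4_PTH against CCl4, DESeq2 called 3 members lower, limma-voom with quality weights called 4 lower and 4053 genes in all, and the fit without a low-count filter called 0 lower. Of all tested genes, 8.23%, 8.72% and 1.98% were lower in these fits. With limma-voom 6 members were higher for CCl4_PTH against control, against 21% of all tested genes. Without controls 1 and 8, 2 members were lower for CCl4_PTH against CCl4 (4.75% of all tested genes) and 10 higher for CCl4_PTH against control (15.4%). Without these and CCl4_PTH 1, a setting chosen after seeing the data, the counts were 21 higher and 5 lower for CCl4_PTH against CCl4, and 12 higher for CCl4_PTH against control. In the first of these comparisons 4136 genes were called, 10.7% of all tested genes as higher and 7.62% as lower. In the second, 15.3% of all tested genes were higher. The replicate numbers in the labels did not pair the samples: deviations of 13 same-number pairs correlated between -0.363 and 0.155, and 0 of 17 libraries lay closest to its own number. With the replicate number as a block, 84 genes were called for CCl4_PTH against CCl4, with 0 members higher and 0 lower, and 3343 for CCl4_PTH against control, with 11 members lower. Of the 113 changes of sign over all settings, 99 touched no value past the threshold. Without TMM factors the sign turned to Nr1h3 0.46, Dgat1 0.15, Pnpla2 0.12 and Lipe 0.015 for CCl4 against control, Elovl5 -0.036 for CCl4_PTH against CCl4, Nr1h3 0.30, Acacb 0.31, Scd1 0.35, Fads1 0.20, Gpam 0.15, Agpat2 0.12, Lpin1 0.16, Lpin2 0.0088, Dgat1 0.22, Cideb 0.15 and Lipe 0.11 for CCl4_PTH against control. With limma-voom and quality weights the sign turned to Scd1 0.24, Plin2 -0.074, Cidec -0.086 and Pnpla3 1.32 for CCl4 against control, Mogat1 -0.11, Fitm1 1.06 and Pnpla3 0.10 for CCl4_PTH against CCl4, Acacb 0.89, Scd1 1.13, Fads1 0.043, Lpin1 0.29 and Pnpla3 1.42 for CCl4_PTH against control. Without the low-count filter the sign turned to Pnpla3 0.022 for CCl4_PTH against CCl4. In fits of the 2 groups alone the sign turned to Pnpla3 0.030 for CCl4_PTH against CCl4. With the replicate block the sign turned to Cidec -0.0032 and Pnpla3 0.052 for CCl4 against control, Mogat1 -0.46 for CCl4_PTH against CCl4, Scd1 0.11 for CCl4_PTH against control. Without controls 1 and 8 the sign turned to Acly 0.25, Acaca 0.28, Acacb 0.064, Scd1 0.83, Cidec -0.15 and Pnpla3 2.23 for CCl4 against control, Pnpla3 0.018 for CCl4_PTH against CCl4, Acacb 1.38, Scd1 1.66, Fads1 0.13, Lpin1 0.67 and Pnpla3 2.25 for CCl4_PTH against control. Without these and CCl4_PTH 1 the sign turned to Acly 0.25, Acaca 0.28, Acacb 0.064, Scd1 0.83, Cidec -0.15 and Pnpla3 2.23 for CCl4 against control, Nr1h3 0.031 and Pnpla3 0.18 for CCl4_PTH against CCl4, Acacb 1.54, Me1 0.090, Scd1 1.91, Fads1 0.24, Gpam 0.063, Lpin1 0.56 and Pnpla3 2.41 for CCl4_PTH against control. Leaving out 1 library at a time turned the sign in fits where the gene was not called, nor was it with all libraries, with ranges of Cidec -0.22 to 0.26 and Plin2 -0.041 to 0.30 for CCl4 against control, Pnpla3 -0.15 to 0.18, Pnpla2 -0.13 to 0.038, Fitm1 -2.08 to 1.55, Cidea -2.30 to 0.86, Nr1h3 -0.085 to 0.030 and Mogat1 -0.11 to 0.99 for CCl4_PTH against CCl4, Acacb -0.29 to 0.55, Scd1 -0.25 to 0.81, Lpin1 -0.36 to 0.25, Thrsp -0.25 to 0.92 and Acss2 -0.12 to 0.54 for CCl4_PTH against control. Genes under 1 CPM, such as Mogat1, Cidea and Pnpla3, rest on few counts, and whether small changes in them could be detected at this depth was not tested.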

Other observations

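Genes of the feeding and fasting response were also counted, 10 outside the 42 and 12 that include 1 of the 42, Lpin1. Of the 10 genes known to rise with feeding or with SREBP activity, 5 were lower (50.0%, against 21.2% of all tested genes) and 0 higher in CCl4 than in control livers, and 5 were higher (50.0%, against 7.1%) and 0 lower in CCl4_PTH than in CCl4 livers (median log2 fold changes -1.08 and 1.04). Their summed level was 516 to 781 CPM in CCl4_PTH livers, 196 to 378 CPM in CCl4 livers and 298 to 962 CPM in control livers, so every CCl4_PTH liver lay above every CCl4 liver. Aacs, which makes acetoacetyl-CoA for lipid synthesis, was at 12.6 to 60.1 CPM in CCl4_PTH livers, 5.48 to 11.6 CPM in CCl4 livers and 19.0 to 123 CPM in control livers. Of the 12 genes known to rise with fasting, 0 passed between CCl4_PTH and CCl4 livers with edgeR, although 4 had an unadjusted p under 0.05 and DESeq2 and limma-voom called 3 each. Of these 12, 5 were lower (41.7%) and 2 higher (16.7%, against 26.3% of all tested genes) in CCl4 than in control livers. Igfbp1 was at 9.27 to 199.9 CPM in CCl4_PTH livers, 54.7 to 306 CPM in CCl4 livers and 3.73 to 10.9 CPM in control livers, and CCl4_PTH 1 was the single liver of its group inside the CCl4 range.

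Circadian genes moved as well. Of 14, 9 were lower (64.3%) and 2 higher (14.3%) in CCl4 than in control livers, and 5 were higher (35.7%) and 0 lower in CCl4_PTH than in CCl4 livers. Dbp, a clock output factor, was at 7.70 to 82.2 CPM in CCl4_PTH livers, 10.5 to 43.7 CPM in CCl4 livers and 59.5 to 85.7 CPM in control livers, with CCl4_PTH 1 the lowest of all 18. Arntl, which encodes the clock factor BMAL1, was at 1.75 to 8.65 CPM in CCl4_PTH livers, 4.49 to 8.74 CPM in CCl4 livers and 0.886 to 3.56 CPM in control livers, again with CCl4_PTH 1 the highest of its group. The part of feeding state and sampling hour in the lipogenic values was not tested.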
